A study of Homo sapiens with 4 samples.

Results

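The small nucleolar RNA host genes are 10 long non-coding RNA genes chosen by name (GAS5, SNHG1, SNHG3, SNHG5, SNHG7, SNHG8, SNHG12, SNHG15, SNHG16 and ZFAS1), out of 23459 genes listed in each count table. All 10 were listed, and all 10 passed the filter on low counts that kept 12559 genes. RNA-Seq was made from hTERT RPE-1 cells, a non-cancerous human line derived from retinal pigment epithelium and immortalized with telomerase, labelled wild type. All cells were starved of serum for 48 h in medium with 0.1% FBS and then received 200 μM merbarone, a catalytic inhibitor of type II topoisomerases, for 4 h (2 libraries) or 8 h (2 libraries). Every group thus carries the drug and the starvation. Untreated cells were not analysed here, so each value below is a level under merbarone or a step from 4 h to 8 h of it, and time with the drug cannot be told apart from time in low serum.

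A small nucleolar RNA (snoRNA) guides the chemical modification of ribosomal and spliceosomal RNA. Box C/D snoRNAs direct ribose methylation and box H/ACA snoRNAs direct pseudouridylation. In vertebrates most of them are cut out of the introns of a host gene after splicing. The spliced exons of the long non-coding hosts carry no long reading frame, and many are known as substrates of nonsense-mediated decay (NMD), the surveillance pathway that removes RNA with early stop codons. Many host transcripts also begin with a run of pyrimidines, the terminal oligopyrimidine (TOP) motif that they share with the mRNAs of ribosomal proteins and through which growth signalling controls translation. GAS5 takes its name from its accumulation in growth-arrested cells.

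The annotated starts of the host genes are shown first, since the shared motif lies there. RefSeq start windows were found for 9 of the 10 genes, and each was placed on hg19 by an exact match, with 50 bases before the annotated start and 50 from it. Capitals mark a run of at least 5 C or T that includes the first transcribed base, taken from its first C, and a TATAA upstream of it. Of the 9 windows, 5 held such a run, and the same 5 held a TATAA between 28 and 34 bases before the start. The run began upstream of the annotated start in SNHG8, SNHG7 and SNHG12. In SNHG8 only its last base lies in the transcript.
ZFAS1 (chr20:47895129-47895228, plus strand): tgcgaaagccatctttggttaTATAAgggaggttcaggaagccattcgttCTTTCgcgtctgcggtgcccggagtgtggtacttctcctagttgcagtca
SNHG5 (chr6:86388402-86388501, minus strand): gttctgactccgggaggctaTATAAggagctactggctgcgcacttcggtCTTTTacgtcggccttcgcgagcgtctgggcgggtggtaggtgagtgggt
SNHG8 (chr4:119199867-119199966, plus strand): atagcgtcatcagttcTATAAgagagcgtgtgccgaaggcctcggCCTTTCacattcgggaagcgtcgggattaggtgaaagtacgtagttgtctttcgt
SNHG7 (chr9:139622587-139622686, minus strand): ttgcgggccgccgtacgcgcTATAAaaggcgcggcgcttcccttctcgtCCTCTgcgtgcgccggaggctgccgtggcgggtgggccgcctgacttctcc
SNHG12 (chr1:28908336-28908435, minus strand): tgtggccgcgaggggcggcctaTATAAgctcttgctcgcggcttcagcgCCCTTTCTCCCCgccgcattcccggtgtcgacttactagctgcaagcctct
SNHG1 (chr11:62623308-62623407, minus strand): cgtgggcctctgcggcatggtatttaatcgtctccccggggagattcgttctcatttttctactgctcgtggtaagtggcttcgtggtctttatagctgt
SNHG1 is printed because it was the only host gene that fell, and its window held no run by this definition. The windows of GAS5, SNHG3 and SNHG16 held none either, and SNHG15 had no entry. The GAS5 window (chr1:173838134-173838233, minus strand) lies wholly upstream of the gene span given for GAS5 below. It therefore does not cover the start of that span, and its lack of a motif says nothing about that start. The windows of ZFAS1, SNHG5, SNHG8, SNHG12 and SNHG1 lie inside the spans given below, but do not cover the outermost start either. A motif found or missing there refers to the RefSeq start alone. For comparison, such a run was present in 8.39% of the 10183 tested genes with a window and in 70.5% of 61 ribosomal protein genes. TATAA was present in 2.63% and 9.84% of them. CACGTG, the palindrome that MYC and related factors can bind, was in none of the 9 windows and in 4.24% of the tested genes. TATAA was searched only before the start and only on the strand as printed. A window depends on which start was annotated, so no match says only that these letters are not in it.

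From 4 h to 8 h of merbarone, 6 of the 10 host genes rose, 1 fell and 3 did not pass the test (edgeR quasi-likelihood test on TMM-normalized counts, Benjamini-Hochberg adjusted p below 0.05 over all 12559 genes). The 6 that rose were SNHG16, ZFAS1, SNHG5, SNHG8, SNHG3 and SNHG7, and SNHG1 fell. Over all genes tested the background was 20.0% higher and 18.9% lower, against 6 and 1 of 10 here. The 10 were chosen with earlier results of these data known, so this is a description and not a test of the list. None of the 10 passed the further threshold of an absolute log2FC above 1 in edgeR, Limma-Voom or DESeq2, a threshold that 5.31% of all genes passed in edgeR. At an unadjusted p below 0.05 in edgeR the count was 7, against 5920 of the 12559 genes tested. The median log2FC of the 10 was 0.38, and that of all genes tested was 0.00. The steps ranged from −0.29 to 0.80. In 6 of the 10 genes both 8 h libraries lay above both 4 h libraries, and in 2 they lay below, patterns that 34.8% and 34.9% of all genes tested showed. In bulk RNA, fewer cells with a transcript and less of it per cell cannot be told apart. When libraries were scaled by their totals without TMM factors (library size alone), the median of all genes moved to −0.11 and the genes called over the whole table went from 2508 higher and 2371 lower to 1697 and 3300. Under that scaling the host genes gave 5 higher and 2 lower, with a median of 0.28.

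**Figure D1:**
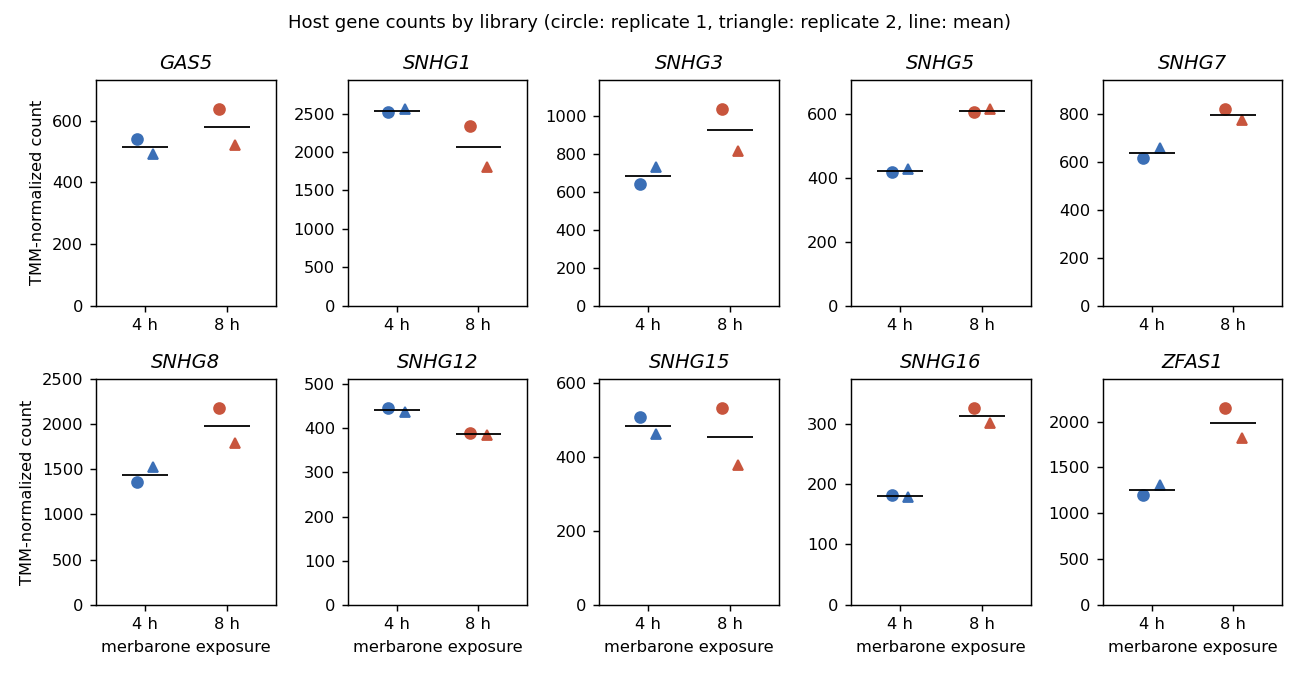
TMM-normalized count (linear axis from 0) of each host gene in the 4 libraries, by time of merbarone exposure, with replicate 1 as a circle, replicate 2 as a triangle and the mean as a line. Both 8 h libraries lie above both 4 h libraries for 6 genes, below them for SNHG1 and SNHG12, and overlap them for GAS5 and SNHG15.

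The number of reads counted on genes ranged from 8064450 to 10324697 per library, and each host gene had between 198 and 2823 counts in a library. The replicates of a time were not copies of each other, since their counts differed by 2.67 (4 h) and 3.84 (8 h) times what read sampling alone gives (chi-square per degree of freedom). Of 9 markers of retinal pigment epithelium, MITF (669 to 882 counts) and OTX2 (132 to 193 counts) were measured, and the other 7, RPE65 and BEST1 among them, had at most 12 counts in any library. Of the filament genes, VIM had 88366 to 91660 counts, KRT8 3042 to 3966 and KRT18 1927 to 3881. Markers of blood, endothelial and glandular epithelial cells (PTPRC, CD3E, PECAM1, EPCAM) summed to between 4 and 10 counts, with EPCAM and CD3E at 0.

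Among the hosts of box C/D snoRNAs, SNHG16 showed the largest rise of the 10 genes. SNHG16 (NCBI Gene 100507246, chr17:74553809-74667067, plus strand) houses the SNORD1 snoRNAs. At 4 h it had 181 and 179 normalized counts, and at 8 h 325 and 301. The 8 h libraries were both far above the 4 h libraries, and the 4 h libraries were almost equal. Its mean went from 180 ± 1.26 to 313 ± 17.4 (SD, n = 2 each), a 1.74-fold rise (log2FC 0.80, SE 0.13, edgeR adjusted p = 8.32e-05). It was also the host gene with the fewest reads, 198 to 318 per library.

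ZFAS1 (Gene 441951, chr20:47894715-47916137, plus strand), the host of the SNORD12 snoRNAs, had normalized counts of 1200 and 1305 at 4 h, rising to 2143 and 1822 at 8 h. Both 8 h libraries were above both 4 h libraries, with the 8 h replicates further apart than the 4 h ones. The rise was 1.58-fold (log2FC 0.66, SE 0.09, edgeR adjusted p = 8.5e-06), from 1253 ± 74.7 to 1982 ± 227 (SD, n = 2 each). SNHG5 (Gene 387066, chr6:86360209-86388650, minus strand), which houses SNORD50A and SNORD50B, had 417 and 426 at 4 h and 604 and 614 at 8 h. Its replicates differed by less than those of ZFAS1, and its rise was 1.44-fold (log2FC 0.53, SE 0.10, edgeR adjusted p = 0.000287).

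SNHG1 (Gene 23642, chr11:62619450-62623425, minus strand), whose introns hold SNORD22 and the SNORD25 to SNORD31 series, went the other way. At 4 h it had 2517 and 2559 normalized counts, and at 8 h 2339 and 1805. The 4 h libraries were nearly equal, and most of the fall came from the second 8 h library. The mean went from 2538 ± 29.7 to 2072 ± 377 (SD, n = 2 each), 1.22-fold lower (log2FC −0.29, SE 0.10, edgeR adjusted p = 0.024). This call was lost without replicate 2 of 8 h (log2FC −0.12, edgeR adjusted p = 0.275), without replicate 1 or replicate 2 of 4 h (edgeR adjusted p = 0.0974 and 0.139), and with DESeq2 (adjusted p = 0.0519).

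GAS5 (Gene 60674, chr1:173827697-173838020, minus strand), the host of 10 listed box C/D snoRNAs, did not pass the test. It had 540 and 493 normalized counts at 4 h and 638 and 522 at 8 h, so the times overlapped. Its log2FC was 0.17 with a 95% confidence interval from −0.06 to 0.40 (edgeR adjusted p = 0.223). Without replicate 2 of 8 h it was 0.30 (edgeR adjusted p = 0.0259), and without replicate 1 of 8 h it was 0.01 (edgeR adjusted p = 0.94).

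Among the hosts of box H/ACA snoRNAs, 3 of 4 rose. SNHG8 (Gene 100093630, chr4:119199858-119206471, plus strand), the host of SNORA24, had 1359 and 1522 normalized counts at 4 h and 2174 and 1788 at 8 h. It was 1.38-fold higher at 8 h (log2FC 0.46, SE 0.09, edgeR adjusted p = 0.000691), with no overlap between the times. Its nearest 4 h and 8 h libraries were closer to each other than its 8 h replicates were. SNHG3 (Gene 8420, chr1:28832492-28837404, plus strand), which houses SNORA73A and SNORA73B, had 643 and 729 at 4 h, then 1036 and 816 at 8 h. The times did not overlap, but the nearest libraries were closer to each other than the 8 h replicates were. Its log2FC was 0.44 (SE 0.11, edgeR adjusted p = 0.0032), and it lost its call without replicate 1 of 8 h (0.25, edgeR adjusted p = 0.0518) and without replicate 1 of 4 h (0.34, edgeR adjusted p = 0.0864).

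SNHG7 (Gene 84973, chr9:139615818-139622636, minus strand), the host of SNORA17A and SNORA17B, had the smallest of the 6 rises. It had 617 and 659 normalized counts at 4 h and 822 and 775 at 8 h, a log2FC of 0.33 (SE 0.09, edgeR adjusted p = 0.00782). With library size alone it was 0.22 (edgeR adjusted p = 0.063), and without replicate 1 of 4 h it was 0.27 (edgeR adjusted p = 0.122). SNHG15 (Gene 285958, chr7:45022618-45026560, minus strand), the host of SNORA9, had 507 and 461 at 4 h and 531 and 378 at 8 h. Its 8 h replicates lay on either side of both 4 h libraries. The log2FC of −0.08 had a 95% confidence interval from −0.36 to 0.19 (edgeR adjusted p = 0.643). It was −0.36 without replicate 1 of 8 h (edgeR adjusted p = 0.0231) and 0.13 without replicate 2 of 8 h (edgeR adjusted p = 0.408), so 1 library set its direction.

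SNHG12 (Gene 85028, chr1:28905050-28909644, minus strand) houses snoRNAs of both classes, SNORD99 with SNORA16A, SNORA44 and SNORA61. At 4 h it had 445 and 436 normalized counts, and at 8 h 390 and 384. The times did not overlap and the replicates were close. The log2FC of −0.19 (95% confidence interval −0.41 to 0.03) did not pass with TMM (edgeR adjusted p = 0.168) and passed with library size alone (−0.29, edgeR adjusted p = 0.033). Of the 5 genes with both capitalized motifs printed above, 4 rose and SNHG12 did not pass. Of the 4 with a window and neither motif, SNHG16 and SNHG3 rose and SNHG1 fell. GAS5, whose window lies outside its gene span, did not pass. No relation between motif and step was tested.

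**Figure D2:**
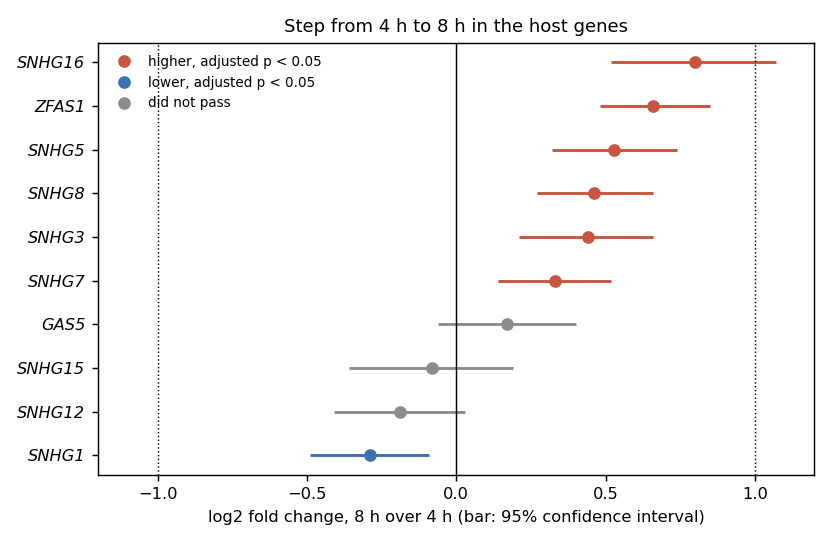
Log2 fold change of the 10 host genes from 4 h to 8 h (points) with 95% confidence intervals (bars), red for genes that rose, blue for the gene that fell and grey for those that did not pass the test. The dotted lines mark an absolute log2FC of 1, which no point reaches, and the values run from −0.29 for SNHG1 to 0.80 for SNHG16.

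The make-up of the host gene reads changed between the times, and this needs no scaling between libraries. SNHG1 held 29.9% and 29.2% of the reads of the 10 genes at 4 h and 21.3% and 19.6% at 8 h. ZFAS1 held 14.2% and 14.9% at 4 h, against 19.5% and 19.8% at 8 h. The number of ZFAS1 reads per SNHG1 read was 0.477 and 0.510 at 4 h, against 0.916 and 1.01 at 8 h. For SNHG16 reads per SNHG1 read it was 0.072 and 0.0701 at 4 h, against 0.139 and 0.167 at 8 h. In both ratios, chosen after the values were seen, the replicates lay closer to each other than the times did. With 2 libraries against 2, an exact two-sided permutation test of such a single value cannot give a p below 0.333, so none is given.

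The host genes also differed between the 8 h replicates. In 9 of 10 host genes the second 8 h library was lower than the first, by a median of −0.26 on the log2 scale of normalized counts. SNHG5 was the exception, at 0.02. Over all genes tested the same share was 50.5%, with a median of 0.00, and over 76 ribosomal protein genes it was 80.3%, with a median of −0.13. At 4 h the second library was lower in 4 of 10 host genes, with a median of 0.03. The part of this difference in the steps from 4 h to 8 h was not tested beyond leaving out each library. With 1 of the 4 libraries left out in turn, between 4 and 7 host genes rose and between 0 and 2 fell.

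**Figure D3:**
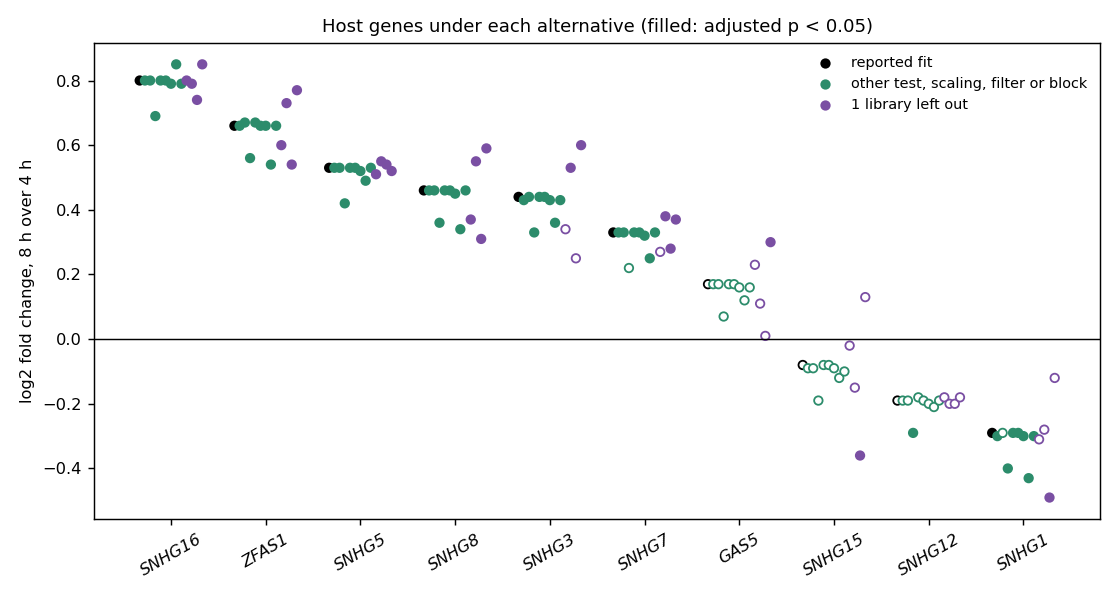
Log2 fold change of each host gene (vertical axis) in the reported fit (black), under 8 alternatives in test, scaling, filter or block (green) and with each of the 4 libraries left out (purple), filled where the edgeR, Limma-Voom or DESeq2 adjusted p is below 0.05. SNHG16, ZFAS1, SNHG5 and SNHG8 are filled throughout, and SNHG15 is the one gene with points on both sides of 0.

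The other long non-coding RNAs fell in more cases than they rose. Of the 449 non-coding genes of this class that were tested and are not among the 10, 18 rose (4.01%) and 126 fell (28.1%), with a median log2FC of −0.35. With the 10 host genes included, 24 rose and 127 fell, which became 15 and 77 without replicate 1 of 4 h and 15 and 69 without replicate 2 of 4 h. Most of them had few reads. Among the 111 whose normalized count averaged 100 or more and that had no place in either host list, a subset formed after the values were seen, 7 rose (6.31%) and 45 fell (40.5%), with a median of −0.24. These counts are a description beside that of the host genes, and no test of the lists against each other was made. After each library was corrected for its trend with abundance, 9 of the 111 rose and 43 fell, while 6 host genes rose and 1 fell. Without replicate 1 of 4 h, 4 of the 111 rose and 29 fell, and without replicate 2 of 4 h, 4 rose and 31 fell.

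Of 21 further long non-coding hosts named in a list, 13 were listed in the count tables and tested, of which 5 rose, 1 fell and 7 did not pass, with a median log2FC of 0.09. The 3 with the most reads rose. SNHG29 went from 6923 ± 134 to 9614 ± 489 normalized counts (SD, n = 2 each), with a log2FC of 0.47 (edgeR adjusted p = 2.37e-05). SNHG32 had a log2FC of 0.38 (edgeR adjusted p = 0.001) and SNHG18 of 0.34 (edgeR adjusted p = 0.0141). The number that rose was 3 with DESeq2, with library size alone and without replicate 1 of 8 h, and 2 without replicate 1 of 4 h. The number that fell was 3 without replicate 1 of 8 h, equal to the number that rose there, and 0 without replicate 1 of 4 h. Over all genes tested, 20.0% rose and 18.9% fell, the latter near the share of protein-coding hosts that fell. Of 22 tested protein-coding hosts, 8 rose (36.4%), 4 fell (18.2%) and 10 did not pass, with a median of 0.11. Without replicate 1 of 4 h, 5 rose and 2 fell. EEF2, the elongation factor that moves the ribosome along the mRNA, rose from 39341 ± 2040 to 58911 ± 5650 (log2FC 0.58, edgeR adjusted p = 3.06e-06). RACK1, a scaffold protein of the small ribosomal subunit, rose by a log2FC of 0.44 (edgeR adjusted p = 3.56e-05). EIF4G2, a translation initiation factor, had a log2FC of 0.10 and did not pass (edgeR adjusted p = 0.25).

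Ribosomal protein genes share the TOP motif and often house snoRNAs themselves. Of 76 tested, 36 rose (47.4%), 4 fell (5.26%) and 36 did not pass, with a median log2FC of 0.24. RPL8 rose by 0.51 (edgeR adjusted p = 9.97e-06) and RPL3 by 0.46 (edgeR adjusted p = 2.21e-05), while RPS6 had a log2FC of 0.10 and did not pass (edgeR adjusted p = 0.346). Without replicate 1 of 4 h the number that rose was 23, and the number that fell was 0 without replicate 2 of 4 h and 1 without replicate 2 of 8 h.

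Genes that regulate TOP RNAs were divided, with 3 of 8 higher, 1 lower and 4 that did not pass. EIF4EBP1, which encodes a repressor of cap-dependent translation controlled by mTOR, rose from a normalized count of 943 ± 0.40 to 1823 ± 33.9 (SD, n = 2 each), with a log2FC of 0.95 (edgeR adjusted p = 2.47e-08). LARP1, whose product binds the TOP motif, rose by a log2FC of 0.44 (edgeR adjusted p = 0.000134). CNBP, which encodes a nucleic acid binding protein, rose by 0.21 (edgeR adjusted p = 0.0346). EIF4EBP2, a paralog of EIF4EBP1, fell by 0.20 (edgeR adjusted p = 0.0491), a call lost with DESeq2 and RLE size factors and without replicate 1 of 4 h, replicate 2 of 4 h or replicate 2 of 8 h. The log2FC was 0.10 for MTOR, −0.03 for RPTOR, 0.15 for LARP1B and −0.17 for RPS6KB1, none past the test.

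No core protein of the snoRNA particles passed the test upward. Of the 8 core proteins of the snoRNA ribonucleoprotein (snoRNP), 3 fell and 5 did not pass, with a median log2FC of −0.20. NOP56, a core protein of box C/D particles that itself houses snoRNAs, fell from 1031 ± 28.3 to 614 ± 72.1 normalized counts (log2FC −0.74, edgeR adjusted p = 4.75e-06). NOP58, its partner, had a log2FC of −0.48 (edgeR adjusted p = 0.00139), and DKC1, the pseudouridine synthase of box H/ACA particles, one of −0.39 (edgeR adjusted p = 0.00332). GAR1 had a log2FC of −0.45 on 83 to 151 counts and did not pass (edgeR adjusted p = 0.0591). FBL, the methyltransferase of box C/D particles, had a log2FC of 0.12, SNU13 of 0.13, NOP10 of 0.07 and NHP2 of −0.02, none past the test. NOP56 and DKC1 are also counted among the protein-coding hosts.

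Of 12 snoRNP assembly factors, 6 fell, 2 rose and 4 did not pass, with a median log2FC of −0.17. NOLC1, a nucleolar and Cajal body chaperone of snoRNPs, had a log2FC of −0.26 (edgeR adjusted p = 0.0119) and PIH1D1, a subunit of the R2TP complex, −0.31 (edgeR adjusted p = 0.0208). RUVBL2, an ATPase of the same complex, had a log2FC of −0.07 and did not pass (edgeR adjusted p = 0.566). The number that fell was 2 with DESeq2, 0 without replicate 1 of 4 h, 2 without replicate 2 of 4 h and 2 without replicate 2 of 8 h. The NMD factors were near the background of all genes tested, of which 20.0% rose and 18.9% fell. Of 20 NMD factors, 4 rose (20.0%), 4 fell (20.0%) and 12 did not pass, with a median of −0.04. Without replicate 1 of 4 h 1 rose, without replicate 2 of 4 h 2 rose and 2 fell, and without replicate 2 of 8 h 2 rose. UPF1, the central helicase of NMD, had a log2FC of 0.21 (edgeR adjusted p = 0.0565), SMG5 of −0.08 (edgeR adjusted p = 0.418) and GSPT1, a translation termination factor, of 0.09 (edgeR adjusted p = 0.459), none past the test.

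**Figure D4:**
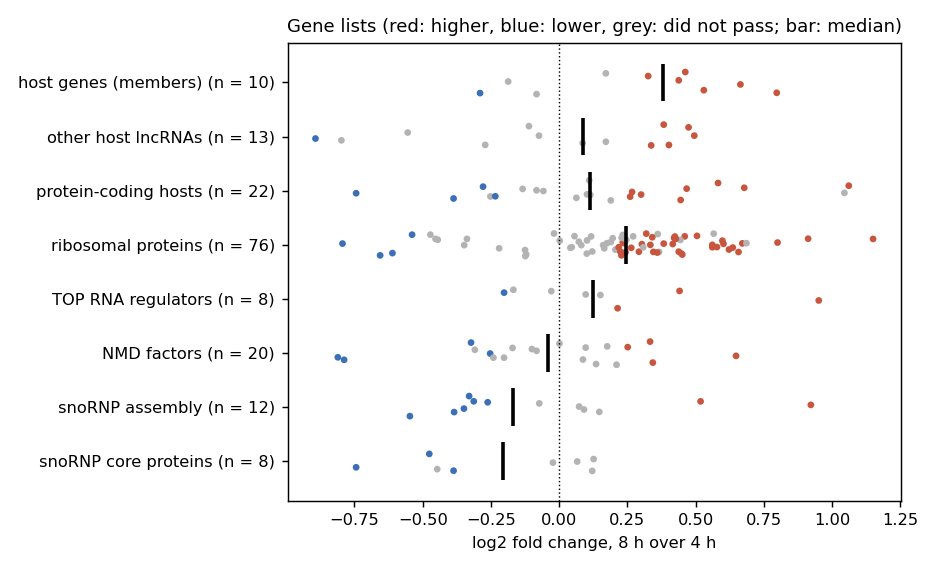
Log2 fold change from 4 h to 8 h of every tested gene in 8 lists (1 point per gene, spread vertically at random), red where the gene rose, blue where it fell and grey where it did not pass, with the median of each list as a bar. The median is 0.38 for the 10 host genes, 0.24 for ribosomal proteins and −0.20 for the snoRNP core proteins.

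The snoRNAs inside the host genes had few counts, as did snoRNAs in general. The libraries were made with a kit that selects polyadenylated RNA, and mature snoRNAs lack a poly(A) tail. By the RefSeq spans, 34 listed snoRNAs lie within the host genes, of which 16 had no count in any library and 7 passed the filter. Of all 327 listed snoRNAs, 159 (48.6%) had no count in any library and 27 passed the filter. A count of 0 in a library allows up to 3 counts, which is a limit of detection and not absence. Together the 34 had 161 and 149 counts at 4 h and 117 and 74 at 8 h, against 9389 and 9675, and 10758 and 7408, for their hosts. These are raw counts from libraries of unequal depth. On the normalized scale the hosts summed to 8426 and 8771 at 4 h, against 11003 and 9204 at 8 h, so that both 8 h libraries were higher. Inside GAS5, 7 of 10 snoRNAs had a count, and inside SNHG1 2 of 8 had, although SNHG1 had the most reads of the 10 hosts over the 4 libraries together.

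Of the 7 snoRNAs that passed the filter, SNORD78 in GAS5 and SNORD30 in SNHG1 fell. SNORD78 had 17 and 20 counts at 4 h and 7 and 4 at 8 h (log2FC −1.42, SE 0.51, edgeR adjusted p = 0.0318). SNORD30 had 16 and 15 counts at 4 h and 6 and 3 at 8 h (log2FC −1.45, SE 0.55, edgeR adjusted p = 0.0438). Each passed the filter only through its 4 h libraries, so that a difference was built into the selection. With DESeq2 SNORD78 did not pass and SNORD30 got no adjusted p. Neither passed with the abundance correction or without replicate 1 of 4 h, replicate 2 of 4 h or replicate 2 of 8 h, and neither was kept for the test when a CPM above 2 was required. SNORD44 had 22 counts in each 4 h library and 15 and 11 at 8 h, with a log2FC of −0.44 that did not pass (edgeR adjusted p = 0.396). SNORD74, with 18 and 33 counts at 4 h and 19 and 14 at 8 h, overlapped between the times (log2FC −0.31, edgeR adjusted p = 0.555).

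Genes beside or across the hosts had steps of their own. The sources used here do not give the use of strand in counting, so reads where a host overlaps a gene on the opposite strand cannot be assigned with certainty. ZFAS1 and ZNFX1, a gene for an RNA helicase, start 585 bases apart on opposite strands. ZNFX1 had a log2FC of 0.22 that did not pass (edgeR adjusted p = 0.0815), against 0.66 for ZFAS1. GAS5 and ZBTB37 start 391 bases apart, and ZBTB37 had 15 to 26 counts and a log2FC of 0.05 (edgeR adjusted p = 0.933). Distances between starts, here and below, use the start of a single canonical transcript per gene. Other annotated starts of the same genes were not measured and may lie nearer. By these starts, the nearest listed gene on the opposite strand from SNHG1 is SLC3A2, the heavy chain of amino acid transporters, at 24974 bases. SLC3A2 rose from a normalized count of 5517 ± 137 to 8852 ± 156 (log2FC 0.68, edgeR adjusted p = 2.32e-07), while SNHG1 fell.

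SNHG3 overlaps, on the same strand, RCC1, the exchange factor of the GTPase Ran. Their canonical transcripts share 151 exonic bases. RCC1 had a log2FC of 0.00 (95% confidence interval −0.20 to 0.20), against 0.44 for SNHG3 (0.21 to 0.66). The canonical transcript of TRNAU1AP shares only 8 exonic bases with that of SNHG12, on the opposite strand. TRNAU1AP fell from 144 ± 19.5 to 98.3 ± 1.58 normalized counts (log2FC −0.55, edgeR adjusted p = 0.0197). In GENCODE, the canonical transcript of PRSS12 shares 2487 exonic bases with that of SNHG8 on the opposite strand. By the RefSeq spans, however, PRSS12 does not overlap SNHG8. PRSS12 had a log2FC of 0.21 (edgeR adjusted p = 0.0632). DIPK1B, which shares 539 exonic bases with SNHG7 on the opposite strand, had 19 to 28 counts in a library. For the other 5 hosts the nearest opposite start lay between 9279 and 228665 bases away. Among these, NT5E near SNHG5 fell by a log2FC of 0.27 (edgeR adjusted p = 0.00525), CCM2 near SNHG15 had a log2FC of −0.09 (edgeR adjusted p = 0.493), SNHG12 is itself the one nearest to SNHG3, and RAB42 and CYGB had at most 2 counts in a library.

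The exon structure of the hosts bears on how many reads were counted. The reads of 75 bases were aligned to the genome by Bowtie, which opens no gaps, so a read across a splice junction could not be placed. In the canonical transcript of GAS5, with 12 exons of a median of 39 bases, 34.3% of possible read positions lie within a single exon. The share was 47.6% for SNHG16 and 58.8% for SNHG1. For the other 7 hosts it was between 72.3% and 98.1%, and the median over all tested genes was 80.7%. The same alignment was used for all 4 libraries, but these shares come from a single canonical transcript per gene. Whether the loss was equal at 4 h and 8 h was not measured. For this reason read numbers of different hosts, as in the ratios above, are not a comparison of their RNA levels.

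The host genes differed among themselves in their profile over the 4 libraries. Taking log2 normalized counts minus their mean, the mean profile of the 10 genes was −0.15 and −0.12 at 4 h, against 0.25 and 0.03 at 8 h. By Euclidean distance over these 4 libraries, the nearest of 9369 other genes whose normalized count averaged 100 or more were GRPEL2, SNX25, CMC2, SH2D5 and PAX8-AS1, at distances from 0.0247 to 0.0328. The nearest host gene was at 0.118 and the farthest at 0.589, so no host gene lay close to the mean profile, and likeness to it is not likeness to any single host gene.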

How the data were processed

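After quality filtering with FASTQC, the authors aligned the reads to hg19 using Bowtie (version 1.2.0 per the labels), kept reads with a single genomic position and deposited raw counts per gene by NCBI Gene identifier, neither normalized nor filtered. The gene annotation, the counting tool and the use of strand are not given in the sources used here.

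From these counts, 12559 of 23459 genes remained after a CPM above 1 was required in 2 or more libraries, and TMM factors were calculated. The 8 h libraries were compared with the 4 h libraries with edgeR (4.0.16, R 4.3.3) and its quasi-likelihood test, with robust dispersions and time as the only term. Normalized counts are counts divided by the effective library size and multiplied by its mean. The SE is the size of the log2FC divided by the square root of F. Limma-Voom (limma 3.58.1), the test used in the study, and DESeq2 1.42.0 were alternatives. The functions were tested on simulated counts. The biological coefficient of variation was 6.52%. The labels do not say whether replicates are separate cultures, and the study calls them biological replicates, so p-values measure the spread between these libraries.

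Of the listed genes, 23308 had a symbol in RefSeq (GRCh38.p14, names and containment only). Positions came from GENCODE v44lift37 on GRCh37, the assembly of hg19, and start sequences from RefSeq.

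The host genes and all gene lists were chosen with earlier results of these data known. Named genes are the 10 hosts, the 3 genes with the most reads in each list (all in lists of 8), the nearest opposite-strand gene of each host and the 5 genes with the nearest profile. Overlapping genes, SNORD30 and TRNAU1AP were named after their values were seen.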

Additional observations from a re-analysis of the deposited data

How the results depend on the processing

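Under the 8 alternatives in test, scaling, filter or block, 77 of 80 host gene results kept their direction and their side of the threshold. The exceptions were SNHG1 with DESeq2 (log2FC −0.29, adjusted p = 0.0519), and SNHG7 (0.22) and SNHG12 (−0.29) with library size alone. The number of host genes that fell was 1 in the reported fit, 0 with DESeq2 and 2 with library size alone. Their median log2FC of 0.38 became 0.28 with library size alone and 0.29 with the abundance correction. Over all genes, DESeq2 called 1498 lower, against 2371.

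With 1 library left out, the remaining library of that time was assumed to vary like the others. The number of host genes that rose then ran from 4 to 7 and of those that fell from 0 to 2, and their median from 0.27 to 0.45. Over all genes, 1602 to 2533 were higher and 1515 to 2311 lower. The log2FC ran from 0.01 to 0.30 for GAS5, −0.49 to −0.12 for SNHG1, 0.25 to 0.60 for SNHG3, 0.27 to 0.38 for SNHG7 and −0.36 to 0.13 for SNHG15, which reversed without replicate 2 of 8 h (0.13). SNHG5, SNHG8, SNHG16 and ZFAS1 kept their calls under all 12 alternatives. The causes were not tested.

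With the replicate number as a block, no host gene call changed, and 2829 genes were higher and 2664 lower. Same-numbered libraries share only a number. The correlation of their deviations was 0.0484 over all genes tested and 0.114 over those with a mean count of at least 100.

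Of 160 counts over the gene lists with all libraries kept, 139 stayed within 1.5 times. With DESeq2, 3 and not 5 of the other non-coding hosts rose, 1 and not 2 assembly factors rose and 2 and not 6 fell, 2 and not 4 NMD factors rose and 2 and not 4 fell, 0 and not 1 TOP regulators fell, 1 and not 4 ribosomal protein genes fell, 0 and not 2 hosted snoRNAs fell, and 66 and not 127 of all tested long non-coding RNAs fell. With library size alone, 3 and not 5 of the other non-coding hosts rose, 1 and not 4 NMD factors rose, and 4 and not 7 of the 111 non-coding RNAs rose, against 12 with the block. Of the other non-coding hosts, 2 and not 1 fell with library size alone, without a filter, with a CPM above 2 and with the block. With RLE size factors 0 and not 1 TOP regulators fell. Of the hosted snoRNAs, 1 and not 2 fell without a filter, and 0 with a CPM above 2 or the abundance correction.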
